A study of Mus musculus with 10 samples.

Results

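Retinoic acid, the active form of vitamin A, is made and sensed through the products of the 9 genes described here, which were chosen as rows of the count table by symbol, 9 of 25239 symbols. They are the retinaldehyde dehydrogenases Aldh1a1, Aldh1a2 and Aldh1a3, the retinol carrier Rbp4 and its membrane receptor Stra6, the nuclear receptors Rara, Rarb and Rarg, and the retinoic acid hydroxylase Cyp26b1. Their mRNA was counted in 10 RNA-seq libraries of 4 groups. MLTC-1 cells, which derive from a Leydig cell tumour of the mouse, were treated with hymeglusin, an inhibitor of HMG-CoA synthase (n = 3), or with DMSO (n = 3). Leydig cells make testosterone in the testis interstitium, and primary ones came from testes of mice aged 24 months (n = 2) or 2 months (n = 2). The dose and duration of hymeglusin, the mouse strain, the isolation of the primary cells and any pooling of animals are not stated in the sources at hand. No label says that replicates came from separate cultures or animals, so the p-values measure only how far these samples spread, which can be technical.

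Retinol travels in blood bound to Rbp4, enters some cells through Stra6, and is oxidised first to retinaldehyde and then, irreversibly, to retinoic acid by the Aldh1a enzymes. Retinoic acid binds Rara, Rarb or Rarg, which sit on DNA with an RXR partner at paired hexamer motifs, and Cyp26 enzymes remove it. In the testis, retinoic acid starts spermatogonial differentiation and meiosis, and Cyp26b1 in somatic cells of the fetal testis shields germ cells from it.

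Total counts ranged from 17407456 to 34787330 per library. The 9 Leydig cell markers examined, among them Star, Cyp17a1 and Insl3, had reads in every group, and their summed level was 6670 to 6852 CPM (counts scaled to the size of each library) in hymeglusin libraries, 9214 to 9436 CPM in DMSO libraries, 18235 to 26424 CPM at 24 months and 20149 to 22289 CPM at 2 months. The primary cell libraries also held reads of markers of other testis cells. Summed spermatid markers were at 6102 and 11139 CPM at 24 months and at 2261 and 3088 CPM at 2 months, and summed macrophage markers at 46.1 and 54.6 CPM at 24 months and at 13.3 and 15.4 CPM at 2 months. The 24-month libraries differed from each other more than any other replicate pair, with a chi-square of 134 per degree of freedom over genes, against 18.9 for the 2-month pair and 3.44 to 7.67 in MLTC-1. In bulk RNA, fewer cells of a type and less RNA per cell cannot be told apart.

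Short stretches of sequence are shown for 2 of the results. The first lies beside the start of Rarb, the one receptor gene that was higher both with hymeglusin and at 24 months. Of the 300-base RefSeq start windows on GRCm38.p6 (250 bases before to 50 after the start), 17 windows belonged to 8 of the 9 genes, with none for Aldh1a3. They were searched on both strands for direct repeats of the receptor hexamers AGGTCA or AGTTCA or GGGTCA or GGTTCA spaced by 1, 2 or 5 bases. The Rarb window was the only one of the 17 with a match, a repeat spaced by 5 bases at positions -53 to -37 from the start. Its 29 bases at chr14:16575507-16575535, minus strand, are shown with the hexamers in capitals.
Rarb: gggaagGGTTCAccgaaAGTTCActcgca
The repeat spaced by 5 was present in 32 of 32851 windows of the same length (0.097%), that spaced by 1 in 73 (0.222%) and that spaced by 2 in 88 (0.268%). No window of the 17 held a repeat spaced by 1 or 2, so no matches overlapped. Counts are per gene and do not tell which Rarb start was used, and any part of the repeat in the Rarb changes was not tested.

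The second pair of sequences shows how alike Aldh1a1 and its neighbour Aldh1a7 are, because counts of close paralogs can share reads. The first 60 coding bases of each (chromosome 19, GENCODE M21 transcripts) are given with the 3 differing bases in capitals.
Aldh1a1: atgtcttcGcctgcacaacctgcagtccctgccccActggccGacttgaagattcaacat
Aldh1a7: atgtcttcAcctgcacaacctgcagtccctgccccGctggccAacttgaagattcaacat
Their coding sequences, 1506 bases each, were 91.7% identical, and 10.4% of 50-base and 0.1% of 100-base stretches were shared. Aldh1a1, Aldh1a2 and Aldh1a3 were 67.3% to 68.7% identical to one another and shared no 50-base stretch. Read length is not stated in the sources at hand, so some uncertainty in the split between Aldh1a1 and Aldh1a7 remains.

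**Figure D1:**
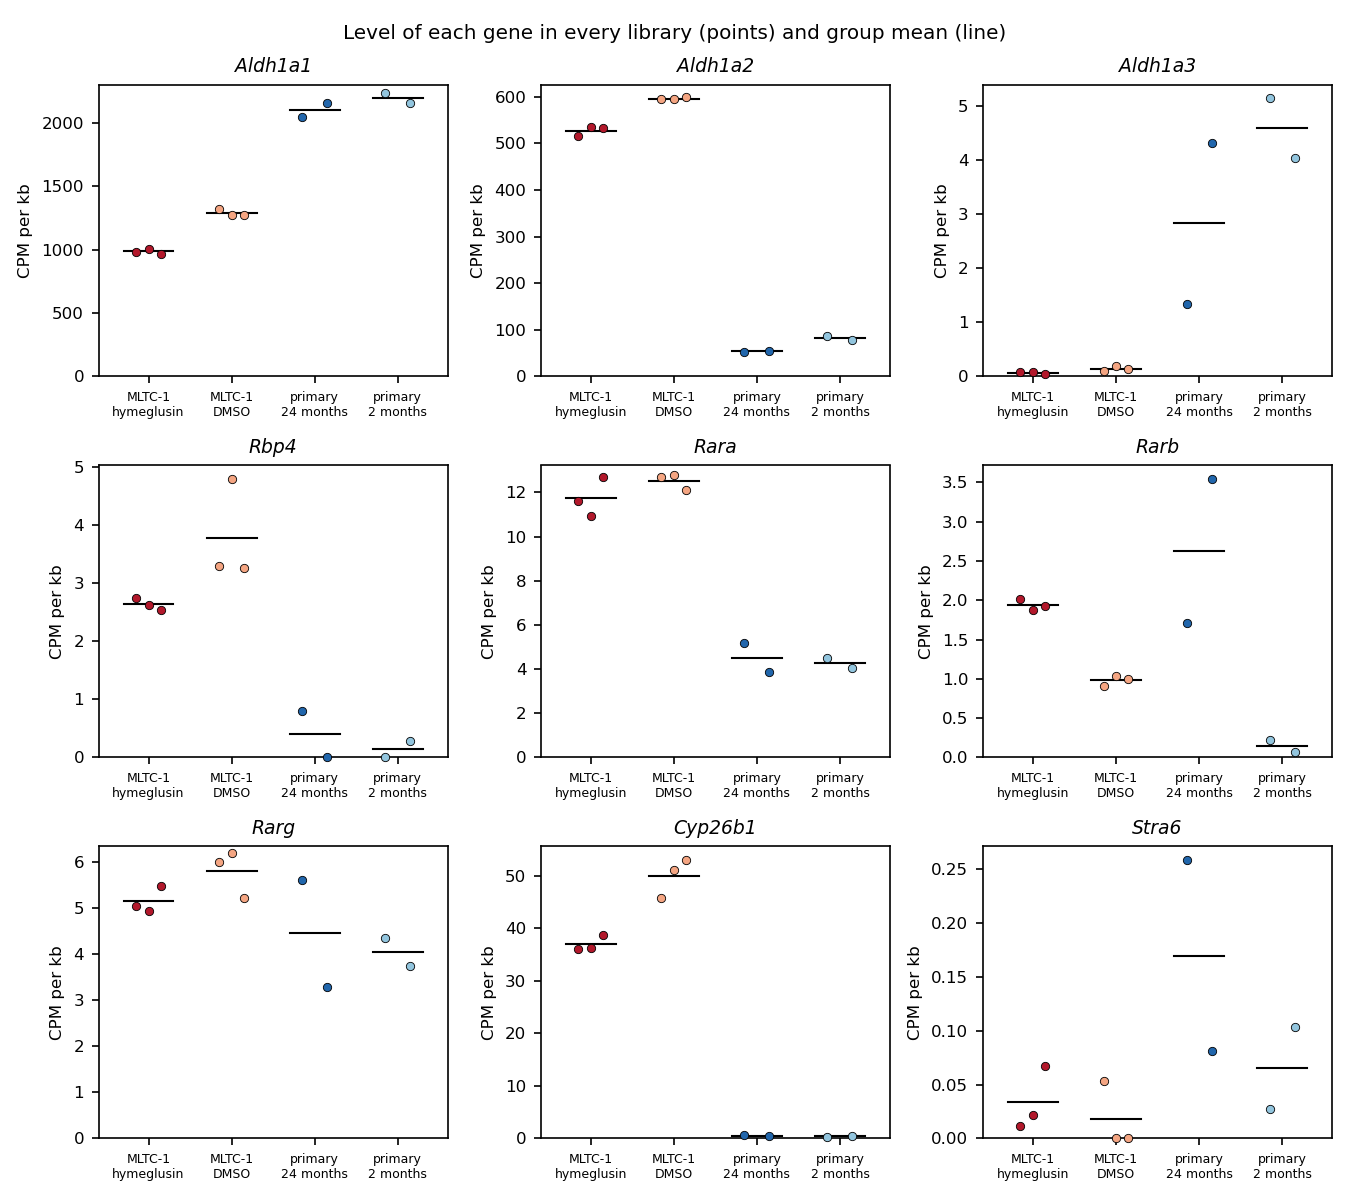
Level of each of the 9 genes in every library, in CPM per kilobase of transcript on a linear axis from 0 whose range differs by gene, with 1 point per library and a line at each group mean. Aldh1a1 was the highest of the 9 in every group, Cyp26b1 and Rbp4 stood higher in both MLTC-1 groups than in primary cells, and Rarb was lowest at 2 months and spread widely at 24 months.

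Across the 4 groups, levels are given as CPM per kilobase of the longest transcript, scaled over all 10 libraries, so that genes can be set side by side. Aldh1a1 was the most abundant of the 9 genes in every library and ranked between 6 and 13 among all genes in 9 of them, with rank 35 in 24-month replicate 1. Its level averaged 986 ± 20.8 in hymeglusin cells and 1288 ± 27.7 in DMSO cells (SD, n = 3 each), and 2101 ± 77.8 at 24 months and 2199.8 ± 57.8 at 2 months (SD, n = 2 each). Aldh1a2, the enzyme best known for retinoic acid synthesis in the embryo, was at 528 ± 10.5 in hymeglusin cells and 596 ± 2.60 in DMSO cells, but at 53.8 ± 0.980 at 24 months and 82.1 ± 5.91 at 2 months.

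The mix of the 3 enzymes therefore differed by cell source. Aldh1a1 made up 65.1% of the summed level of the 3 in hymeglusin cells and 68.3% in DMSO cells, against 97.4% at 24 months and 96.2% at 2 months. Aldh1a2 made up 34.9% in hymeglusin cells and 31.6% in DMSO cells, against 2.50% at 24 months and 3.59% at 2 months. Aldh1a3 stayed at or under 0.221% of the sum in every library. The summed level of the 3 was 1514 in hymeglusin cells and 1884 in DMSO cells, and 2158 at 24 months and 2286 at 2 months.

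Among the receptors, Rara was the highest in both MLTC-1 groups, and the order of Rara and Rarg was not the same in both 24-month libraries. Rara averaged 11.8 ± 0.889 in hymeglusin cells, 12.5 ± 0.369 in DMSO cells, 4.51 ± 0.929 at 24 months and 4.28 ± 0.330 at 2 months. Rarg averaged 5.15 ± 0.290 in hymeglusin cells, 5.80 ± 0.513 in DMSO cells, 4.45 ± 1.64 at 24 months and 4.05 ± 0.429 at 2 months, and each neighbouring pair of groups overlapped in range. Rarb ran in another order, with 2.62 ± 1.30 at 24 months, 1.94 ± 0.0733 in hymeglusin cells, 0.979 ± 0.0686 in DMSO cells and 0.145 ± 0.115 at 2 months. The 24-month range of Rarb overlapped that of hymeglusin cells, while hymeglusin, DMSO and 2-month ranges did not overlap.

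**Figure D2:**
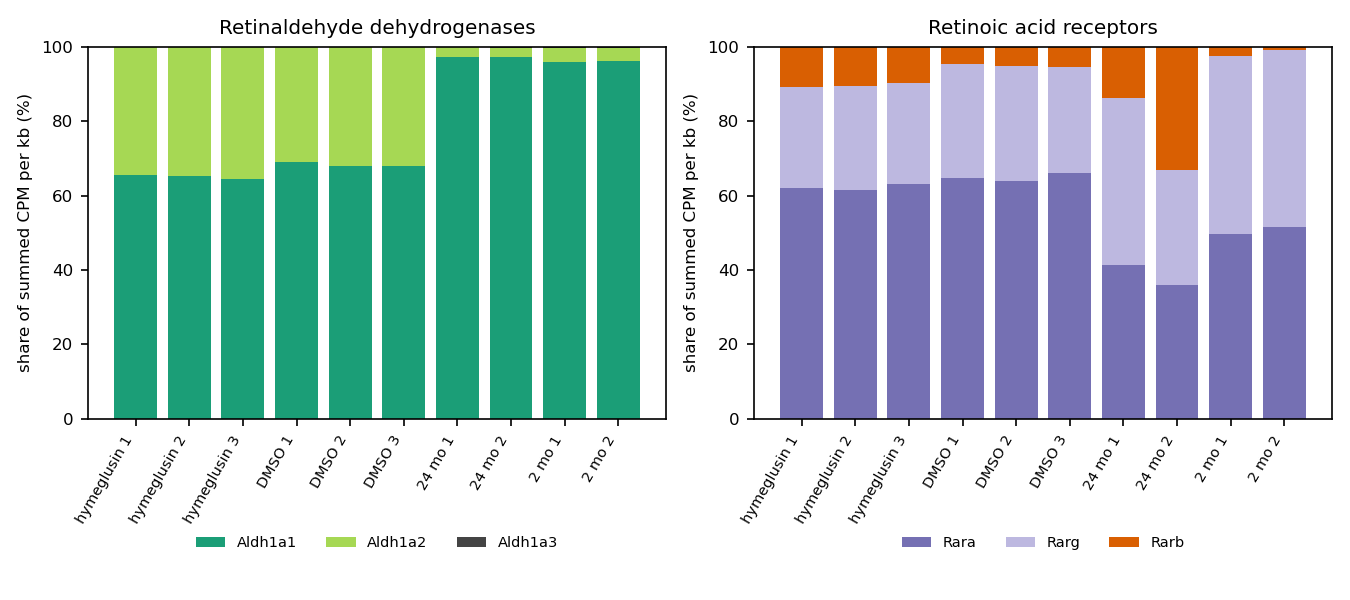
Percent of the summed CPM per kilobase taken by each Aldh1a enzyme (left) and by each retinoic acid receptor (right), stacked to 100% in each of the 10 libraries. Aldh1a2 held on average 34.9% of the enzyme sum in hymeglusin cells and 31.6% in DMSO cells but 2.50% at 24 months and 3.59% at 2 months, and the Aldh1a3 share is too small to be seen.

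Rarb made up 10.3 ± 0.659% of the receptor sum in hymeglusin cells and 5.08 ± 0.416% in DMSO cells (SD, n = 3 each). In primary cells its share was 13.7% and 33.1% in the 24-month libraries, against 2.49% and 0.811% in the 2-month libraries. The shares did not overlap between groups in either comparison.

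Cyp26b1 and the retinol carrier separated the cell line from primary cells. Cyp26b1 averaged 37.0 ± 1.503 in hymeglusin cells and 49.9 ± 3.77 in DMSO cells, but 0.535 ± 0.0143 at 24 months and 0.413 ± 0.127 at 2 months. Rbp4, better known from liver and fat, was at 2.64 ± 0.106 in hymeglusin cells and 3.78 ± 0.871 in DMSO cells. In primary cells Rbp4 had 14 and 0 counts in the 24-month libraries and 0 and 8 counts in the 2-month libraries. Stra6 was near the limit of detection throughout. It had 1, 2 and 7 counts in hymeglusin libraries, 4, 0 and 0 in DMSO libraries, 12 and 6 at 24 months and 2 and 8 at 2 months. A count of 0 allows up to 3 counts, which is 0.0873 to 0.199 CPM in these libraries, so its absence cannot be stated, and it was left untested in every comparison by the filter on low counts. Intervals and this limit cover counting error only.

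For each gene with at least 10 counts in 2 or more libraries, the gene with the most similar pattern over the 10 libraries was sought among 14278 genes by the root mean square difference of centred log2(CPM + 0.5). The nearest to Rara was Klf16 (0.0502), to Rarg 2610524H06Rik (0.0862), to Aldh1a2 Tbc1d30 (0.0923) and to Aldh1a1 Rps6ka4 (0.0936). Those of Cyp26b1, Rbp4 and Aldh1a3 were less close, with Shox2 at 0.222, Aplp1 at 0.232 and Klhl13 at 0.236. Rarb differed most from its nearest gene, Hhex, at 0.495.

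The first comparison asked which genes changed when HMG-CoA synthase was inhibited in MLTC-1 cells. Of the genes chosen here, the synthesis genes Aldh1a1 and Aldh1a2, the carrier Rbp4 and the breakdown gene Cyp26b1 were lower with hymeglusin. Of the receptors only Rarb was higher. All 7 genes tested passed an adjusted p of 0.05 in edgeR's quasi-likelihood test, 1 higher and 6 lower, in a comparison where 48.3% of all 12873 genes tested did (23.8% higher and 24.5% lower). The largest change was in Rarb, at 1.88-fold, and the 6 decreases were between 1.12-fold (Rara) and 1.52-fold (Rbp4). The CPM values of this comparison were scaled over its 6 libraries. Of 8 Leydig cell markers tested, 1 was higher and 5 lower with hymeglusin, and the part of this in the changes below was not tested.

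Aldh1a1 had 2310.4, 2361 and 2209 CPM in hymeglusin libraries, against 3247, 3063 and 3133 CPM in DMSO libraries. The groups did not overlap, and the level fell by 27.1%, a log2 change of -0.46 ± 0.04 (SE, adjusted p = 8.22e-11, edgeR). Aldh1a2 had 1162, 1202 and 1169.8 CPM with hymeglusin, against 1404, 1377 and 1415 CPM with DMSO. It too did not overlap between the groups, but its change was smaller, with a log2 change of -0.25 ± 0.04 (SE, adjusted p = 1.13e-05, edgeR). Aldh1a3 had 7, 8 and 5 counts with hymeglusin and 8, 23 and 12 counts with DMSO, too few for the test.

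The paralog Aldh1a7, which is not one of the 9, moved the other way from Aldh1a1. It had 101.9, 103.5 and 101.5 CPM with hymeglusin, against 62.5, 61.8 and 59.7 CPM with DMSO, and rose with a log2 change of 0.74 ± 0.05 (SE, adjusted p = 9.22e-14, edgeR). Its share of the Aldh1a1 plus Aldh1a7 level per kilobase was 4.85% in hymeglusin cells and 2.18% in DMSO cells.

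Rbp4 had 3.18, 3.03 and 2.86 CPM with hymeglusin, against 3.995, 5.69 and 3.95 CPM with DMSO. The log2 change was -0.60 ± 0.18 (SE, adjusted p = 0.00568, edgeR), with DMSO replicate 2 well above the other two. Without that library it was -0.39, and the call was lost (adjusted p = 0.131, within 0.00207 to 0.746 over 16 alternatives).

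Cyp26b1, which clears retinoic acid, had 161.2, 161.9 and 168.7 CPM with hymeglusin, against 214, 235 and 248 CPM with DMSO. No hymeglusin library reached the lowest DMSO library, and the log2 change was -0.50 ± 0.05 (SE, adjusted p = 3.59e-10, edgeR). Aldh1a1 and Aldh1a2, which make retinoic acid, and Cyp26b1, which removes it, thus all fell at the RNA level.

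Rarb had 6.26, 5.80 and 5.80 CPM in hymeglusin libraries, against 2.93, 3.30 and 3.22 CPM in DMSO libraries. These were 179, 174 and 203 counts with hymeglusin and 69, 111 and 79 counts with DMSO. All hymeglusin libraries were above all DMSO libraries, and the log2 change was 0.91 ± 0.16 (SE, adjusted p = 9.64e-06, edgeR). Of the 1263 tested genes of similar transcript length, 58 (4.59%) had as large an increase or larger.

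The other two receptors differed little. Rara had 39.2, 36.8 and 41.7 CPM with hymeglusin, against 44.8, 44.2 and 42.7 CPM with DMSO, with a log2 change of -0.16 ± 0.07 (SE, adjusted p = 0.0380, edgeR). Rarg had 14.8, 14.5 and 15.7 CPM with hymeglusin, against 18.5, 18.7 and 16.1 CPM with DMSO, with a log2 change of -0.24 ± 0.09 (SE, adjusted p = 0.0244, edgeR). Neither overlapped between groups on this CPM scale, but Rara lost its call in 9 of 17 alternatives (adjusted p 0.00130 to 0.839) and Rarg in 7 of 17 (adjusted p 0.00417 to 0.734).

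Leaving out 1 library changed these weaker calls. Without DMSO replicate 2, 4 of the genes were called, with Rara (adjusted p = 0.106), Rarg (0.126) and Rbp4 no longer among them. Rara and Rarg also lost their calls when DMSO replicate 1 (adjusted p = 0.0858 for Rara and 0.0732 for Rarg), hymeglusin replicate 1 (0.0889 for Rara and 0.0675 for Rarg) or hymeglusin replicate 2 (0.152 for Rara and 0.0709 for Rarg) was left out. When all 10 libraries entered 1 fit, whose spread includes the primary cells, only Aldh1a1 stayed called (adjusted p = 0.0309). With total counts alone as scaling the median of all genes was 0.11, and 70.0% of called genes were higher instead of 49.4%, while the signs of the 7 genes stayed. Rara was then at -0.058 (adjusted p = 0.483) and Rarg at -0.14 (adjusted p = 0.203), both no longer called.

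**Figure D3:**
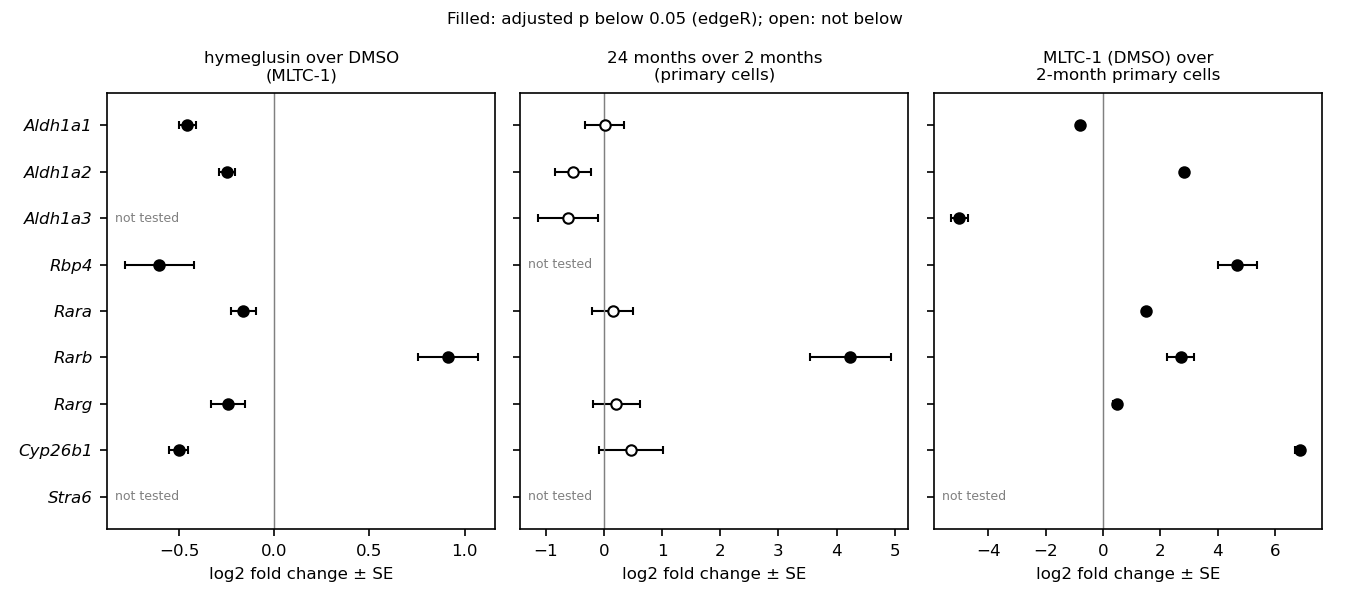
Fitted log2 fold change ± SE of each of the 9 genes in the 3 comparisons, each panel with its own axis range, filled where adjusted p was below 0.05. With hymeglusin Rarb was the only one above 0, at 24 months it was the only one called, and between MLTC-1 and primary cells Cyp26b1 had the largest difference.

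Other genes of the pathway were taken from a list of 66, of which 36 could be tested. With hymeglusin 10 were higher and 10 lower, 55.6% in all, with a median log2 change of 0.08 against 0.01 for all genes. The share over all genes was 48.3% (23.8% higher and 24.5% lower), so the count of the list was near it. Of 13 retinol and retinaldehyde oxidoreductases tested, 2 were higher and 7 lower. The lower ones included Adh7, an alcohol dehydrogenase that oxidises retinol, at 1204 ± 34.1 CPM with hymeglusin against 1612 ± 46.9 CPM with DMSO (log2 change -0.42, adjusted p = 6.00e-10, edgeR). Of 11 receptor partners and co-regulators, 4 were higher and 1 lower, the lower one being the RAR partner Rxra (log2 change -0.46, adjusted p = 2.56e-09, edgeR).

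Of 7 known retinoic acid responsive genes tested, 3 were higher and 2 lower. Rec8, a meiotic cohesin subunit, was at 18.1 ± 1.87 CPM with hymeglusin against 8.37 ± 0.0959 CPM with DMSO (log2 change 1.11, adjusted p = 2.80e-11, edgeR). Tgm2, a transglutaminase, rose with a log2 change of 1.16 (adjusted p = 5.39e-10, edgeR). Tbx1, a T-box factor, fell with a log2 change of -0.71 (adjusted p = 2.79e-12, edgeR). The calls went in both directions. The list gives no direction of response for its genes, and retinoic acid signalling itself was not tested. Of 5 uptake, binding and storage genes tested, 1 was higher and none lower.

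**Figure D4:**
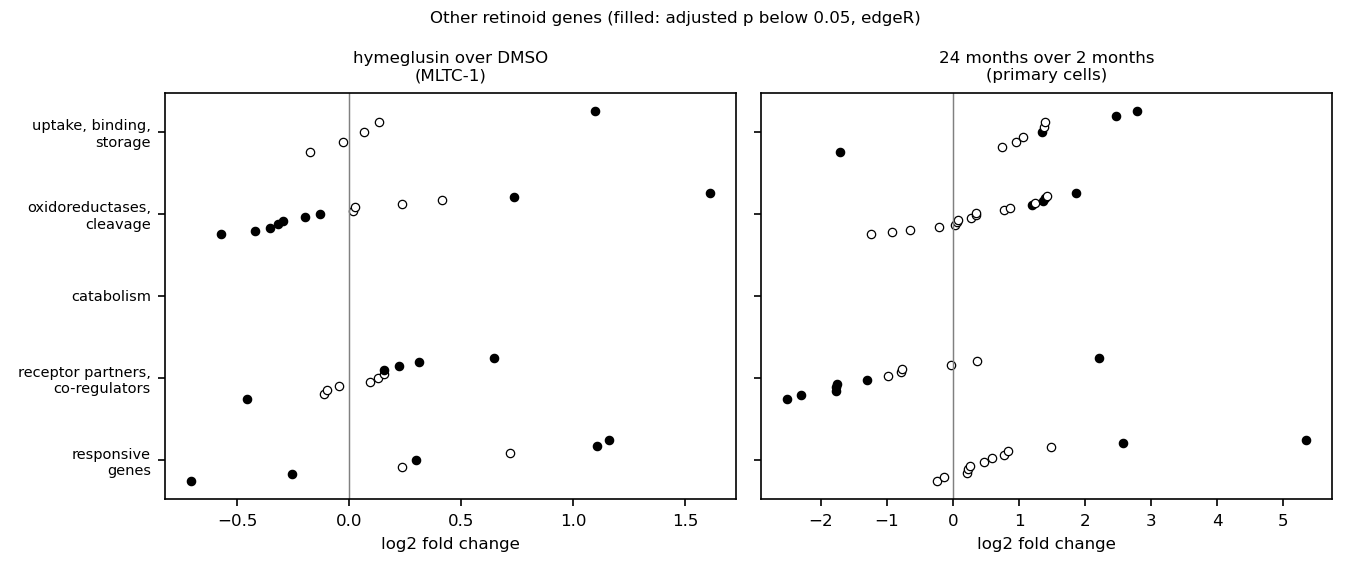
Fitted log2 fold changes of the other pathway genes tested, for hymeglusin over DMSO (left) and 24 months over 2 months (right), each with its own axis range, grouped by list, with 1 point per gene, filled where adjusted p was below 0.05. Points lay on both sides of 0 in most lists, the highest being Gata6 at 5.34 with age.

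The second comparison asked what differed in Leydig cells of old mice. Rarb was the only one of the 9 genes that passed the test at 24 months, and it was higher by 18.8-fold. Of 7 genes tested, 1 was called, higher, where 28.6% of 16381 genes tested were called (13.5% higher and 15.1% lower). Rbp4 and Stra6 had too few counts. The common biological coefficient of variation was 0.307 here, against 0.0509 in the hymeglusin comparison and 0.103 between MLTC-1 and 2-month cells. In counts simulated with the spread of this comparison, 5 of 100 2-fold and 80 of 100 4-fold changes were recovered. For the hymeglusin comparison 98 of 100 2-fold changes were recovered. A gene not called between ages can therefore still differ. The CPM values of this comparison were scaled over its 4 libraries.

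Rarb had 5.42 and 11.03 CPM at 24 months, against 0.695 and 0.184 CPM at 2 months. These were 80 and 266 counts at 24 months and 17 and 5 counts at 2 months. With so few counts at 2 months, Rarb passed the filter on low counts only through the 24-month libraries. It could therefore hardly be called lower, and the direction of its call is to be read with that limit. Both old libraries were above both young ones, and the log2 change was 4.23 ± 0.70 (SE, adjusted p = 0.00744, edgeR). The size depended on single libraries. It was 5.43 without 2-month replicate 1, 3.54 without 2-month replicate 2, 4.62 without 24-month replicate 1 and 3.58 without 24-month replicate 2. Rarb remained called in these and in all 14 alternatives that tested it (adjusted p 2.53e-11 to 0.0402), and the stricter filter on low counts left it untested.

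Longer transcripts had lower fold changes at 24 months in general, with a median log2 change of 0.56 for 1603 genes of 1662 to 2137 bases and -0.70 for 1603 genes of 4234 to 5020 bases. The longest Rarb transcript has 3108 bases. Among the 1602 tested genes of similar length, the median log2 change was -0.26, 4.62% were called higher, and 6 genes had a change as large as that of Rarb or larger. With an offset for transcript length Rarb had a log2 change of 4.32, and with length and GC content 4.37.

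Rarb shares 1793 exonic bases, 34.1% of its own, with Top2b, a DNA topoisomerase gene on the opposite strand, and 227 bases (4.3%) with the antisense gene Gm48162, which has no row in the table. Whether counting used strand is not stated in the sources at hand, and without strand the reads of overlapping genes cannot be told apart. The fitted change of Top2b had the opposite sign to that of Rarb with hymeglusin and with age, but the same sign between MLTC-1 and 2-month cells. It had 15.4 and 52.9 CPM at 24 months against 118.6 and 102.1 CPM at 2 months (log2 change -1.69, adjusted p = 0.0384, edgeR). Top2b lost that call in 6 of 15 alternatives (adjusted p 9.11e-06 to 0.635), one of them without 2-month replicate 1 (0.112). With the length offset it was at -0.28, and with length and GC content at -0.24. Top2b is among the 1603 tested genes with the longest transcripts, of which the median log2 change with age was -1.41 and 54.6% were called lower, so its decrease was near that of its length class. In MLTC-1 cells it averaged 125 ± 7.77 CPM with hymeglusin and 155 ± 2.17 CPM with DMSO (log2 change -0.32, adjusted p = 3.32e-06, edgeR). Between DMSO and 2-month cells Top2b was higher in MLTC-1, as Rarb was (log2 difference 0.34 for Top2b, adjusted p = 5.55e-04, edgeR). That call of Top2b was lost in 2 of 15 alternatives (adjusted p 5.46e-06 to 0.490).

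**Figure D5:**
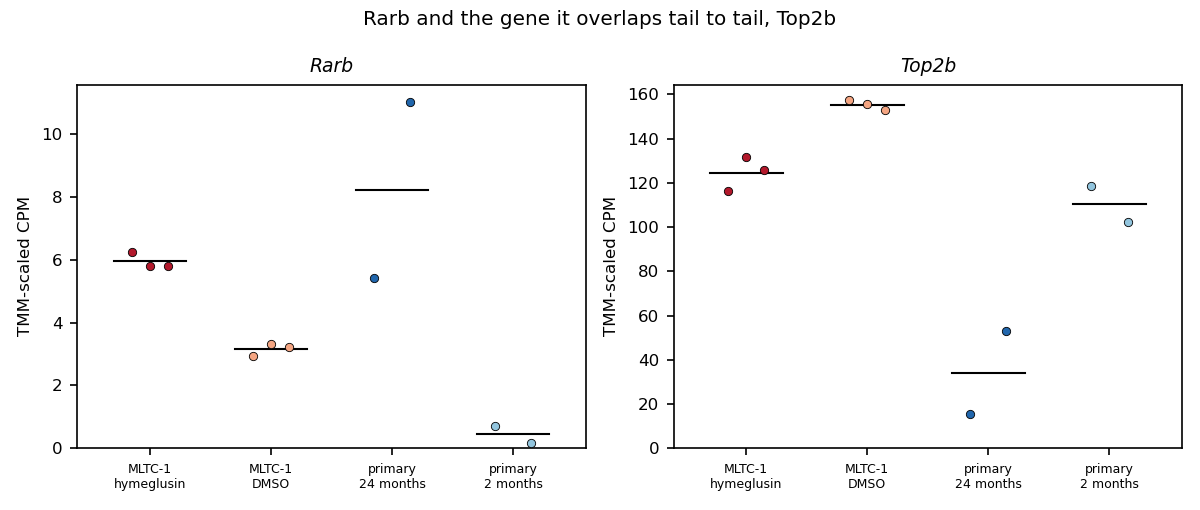
Levels of Rarb and of Top2b, the gene that overlaps it on the opposite strand, in each library in TMM-scaled CPM on linear axes from 0, with a line at each group mean and with MLTC-1 and primary libraries scaled separately. Rarb was higher, and Top2b lower, in every hymeglusin library than in every DMSO library and in both 24-month libraries than in both 2-month libraries.

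Markers of other cells moved with age as well. Of the macrophage markers, 4 of 9 tested were higher at 24 months and none lower, and of the spermatid markers 8 of 10 were higher. Of 5 myoid and smooth muscle markers tested 2 were higher, with a sum of 84.2 and 163 CPM at 24 months against 29.1 and 45.2 CPM at 2 months. Of 7 lymphocyte and neutrophil markers only 2 had enough counts to be tested, and both were higher. The sum over the list was 7.95 and 53.2 CPM at 24 months against 0.539 and 0.674 CPM at 2 months. S100a8, S100a9 and Ly6g had 0 counts at 2 months, and Ly6g also at 24 months. A marker near 0 at 2 months passes the filter only through the 24-month libraries, so it could only be called higher. Of 6 stroma markers tested 1 was higher and 3 were lower, with a sum of 160 and 251 CPM at 24 months against 633 and 675 CPM at 2 months. Of 9 Sertoli markers tested none was higher and 2 were lower, while their sum was at 3898 and 6149 CPM at 24 months against 3418 and 3825 CPM at 2 months. None of the spermatogonia and spermatocyte (10 tested) or endothelium (4 tested) markers passed the test in either direction. Their sums were at 132 to 241 CPM and 11.5 to 26.8 CPM at 24 months, against 210.2 to 336 CPM and 18.5 to 19.2 CPM at 2 months. The part of these cells in the higher Rarb level was not tested.

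The synthesis genes did not pass the test between ages, which does not show that they were unchanged. Aldh1a1 had 4938.5 and 5097 CPM at 24 months, against 5217 and 4728 CPM at 2 months, with overlapping groups and a log2 change of 0.01 ± 0.33 (SE, adjusted p = 0.980, edgeR). Aldh1a2 had 123.1 and 123.7 CPM at 24 months, against 192.8 and 163.8 CPM at 2 months. Its groups did not overlap, but with a log2 change of -0.53 ± 0.31 (SE) it was not called (adjusted p = 0.220, edgeR). It was called in 4 of 15 alternatives (adjusted p 0.00423 to 0.760). These were the fit of all 10 libraries (-0.48, adjusted p = 0.00423), offsets for length and GC content (-0.83, adjusted p = 0.0280), and the fits without 24-month replicate 1 (-0.57, adjusted p = 0.0239) or 24-month replicate 2 (-0.59, adjusted p = 0.0178).

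Aldh1a3 had 4.74 and 14.9 CPM at 24 months, against 17.5 and 12.95 CPM at 2 months, and its groups overlapped. The log2 change was -0.62 ± 0.51 (SE, adjusted p = 0.376, edgeR). Without 24-month replicate 2 it was -1.73 (adjusted p = 0.00136, the lowest of 15 alternatives, of which the highest was 0.847). A fit without a 24-month replicate leaves 1 library at 24 months, which is assumed to vary like the 2-month pair.

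Cyp26b1 had 2.51 and 2.36 CPM at 24 months, against 1.43 and 2.10 CPM at 2 months, a log2 change of 0.46 ± 0.55 (SE, adjusted p = 0.540, edgeR). Rara had 17.9 and 13.1 CPM at 24 months, against 15.1 and 12.7 CPM at 2 months, a log2 change of 0.15 ± 0.36 (SE, adjusted p = 0.770, edgeR). Rarg had 16.9 and 9.75 CPM at 24 months, against 12.7 and 10.3 CPM at 2 months, a log2 change of 0.21 ± 0.40 (SE, adjusted p = 0.705, edgeR). Rara and Rarg overlapped between ages, and Cyp26b1 did not. With 2 libraries per age, groups can fall apart without a difference, here as for Aldh1a2 above. The share of all genes without overlap is not given, so this is no evidence of a change. The sign for Aldh1a1, Rara and Rarg turned in some alternatives.

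Of the 66 other pathway genes 51 were tested between ages, 10 higher and 7 lower (33.3%), with a median log2 change of 0.35 against -0.01 for all genes. That share was near the 28.6% over all genes (13.5% higher and 15.1% lower), against which the list counts below are also to be read. Of 12 receptor partners and co-regulators tested, 1 was higher and 6 lower. The lower ones included the co-repressor Ncor1 (log2 change -2.30, adjusted p = 0.0109, edgeR). With the length offset Ncor1 was at -0.93 and no longer called (adjusted p = 0.0599, the highest of 15 alternatives). Lrp1, a receptor for retinyl ester-bearing remnants, was lower as deposited (log2 change -1.71, adjusted p = 0.0104, edgeR) but at 0.10 with the length offset (adjusted p = 0.870, the highest of 15 alternatives).

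Of 9 uptake, binding and storage genes tested 3 were higher and 1 lower, and of 18 oxidoreductases 4 were higher and none lower. Adh1, an alcohol dehydrogenase that oxidises retinol, was at 659 and 551 CPM at 24 months against 174 and 161 CPM at 2 months (log2 change 1.85, adjusted p = 0.00922, edgeR). Adh1 lost its call without 2-month replicate 1 (adjusted p = 0.130) or 2-month replicate 2 (0.129), within 1.49e-06 to 0.130 over 15 alternatives. Lpl, a lipase that also frees retinol from its esters, was at 22.0 and 4.23 CPM at 24 months against 1.31 and 2.47 CPM at 2 months (log2 change 2.78, adjusted p = 0.0241, edgeR). Without 24-month replicate 1 Lpl was at 1.10 and not called (adjusted p = 0.125, within 2.23e-07 to 0.156 over 14 alternatives).

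Of 12 retinoic acid responsive genes tested 2 were higher and none lower. Gata6, a GATA factor of steroidogenic cells, was at 55.5 and 73.8 CPM at 24 months against 1.60 and 1.58 CPM at 2 months (log2 change 5.34, adjusted p = 4.85e-04, edgeR). Aldh1a7 was at 321 and 443 CPM at 24 months and at 467 and 418 CPM at 2 months, and was not called (adjusted p = 0.650, edgeR). Without 24-month replicate 2 its log2 change was -0.52 (adjusted p = 0.0280, the lowest of 15 alternatives, of which the highest was 0.949).

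Scaling shifted this comparison as a whole. Total counts alone put the median of all genes at -0.21 and upper quartile scaling at 0.17, and the share of called genes that were higher was 29.0% and 59.6% in these, against 47.3%. Rarb was called and higher under each of them.

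The third comparison set untreated levels in the cell line beside those of young primary cells, using the DMSO libraries of the first comparison and the 2-month libraries of the second. Cell line, culture and library origin cannot be told apart in it. The CPM values below keep the scaling of the first comparison for DMSO and of the second for 2-month cells. Their ratios therefore differ from the fitted fold changes. Of 8 genes tested, 8 were called, 6 higher and 2 lower in MLTC-1, where 82.8% of 16092 genes tested were called (34.4% higher and 48.5% lower), a background that leaves little to read from the count. The median log2 difference of all genes was -0.27, and the values below can be read against it.

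Cyp26b1 had the largest difference, 117-fold higher in MLTC-1, with 232 ± 17.1 CPM in DMSO cells (SD, n = 3) and 1.76 ± 0.471 CPM at 2 months (SD, n = 2). Its log2 difference was 6.87 ± 0.15 (SE, adjusted p = 1.92e-09, edgeR). Rbp4 was higher by 4.69 ± 0.68 on the log2 scale (SE, adjusted p = 1.75e-04, edgeR), but only 8 counts in 1 of the 2-month libraries stand on the other side. Without that library, 2-month replicate 2, the fitted difference was 9.91, and without 2-month replicate 1 it was 3.74. Rbp4 passed the filter on low counts only through the DMSO libraries, so it could only be called higher.

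The synthesis enzymes differed in both directions. Aldh1a2 was 7.06-fold higher in MLTC-1 (log2 difference 2.82 ± 0.06 SE, adjusted p = 1.66e-09, edgeR). Aldh1a3 was 32.2-fold lower, with 8, 23 and 12 counts in DMSO libraries against 428 and 352 counts at 2 months (log2 difference -5.01 ± 0.28 SE, adjusted p = 3.10e-07, edgeR). Aldh1a1 was 1.76-fold lower (log2 difference -0.81 ± 0.05 SE, adjusted p = 6.52e-07, edgeR), and with offsets for length and GC content it was at -0.06 and not called (adjusted p = 0.272, the highest of 15 alternatives).

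All 3 receptors were higher in MLTC-1. Rara differed by 1.51 ± 0.09 on the log2 scale (SE, adjusted p = 5.47e-07, edgeR) and Rarb by 2.71 ± 0.48 (SE, adjusted p = 5.72e-04, edgeR). Rarb was at 3.87 without 2-month replicate 1 and at 2.08 without 2-month replicate 2. With its low counts at 2 months, Rarb passed the filter only through the DMSO libraries, so it could hardly be called lower. Rarg differed by 0.48 ± 0.14 (SE, adjusted p = 0.0103, edgeR) and lost its call in 4 of 15 alternatives, one of them without DMSO replicate 2 (adjusted p = 0.0569, within 6.95e-04 to 0.145).

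Of the other pathway genes 49 were tested, 14 higher and 30 lower (89.8%, against 82.8% of all genes), with a median log2 difference of -0.70. Adh7 was at 1612 ± 46.9 CPM in DMSO cells against 1.72 ± 0.00804 CPM at 2 months (log2 difference 9.71, adjusted p = 8.10e-11, edgeR). Tbx1 (5.46) and Gata6 (5.44) were also higher in MLTC-1 (adjusted p = 6.04e-10 and 9.72e-10, edgeR). Dhrs3, which reduces retinaldehyde back to retinol, was lower (log2 difference -2.33, adjusted p = 1.29e-08, edgeR), as was Aldh1a7 (-3.004, adjusted p = 6.93e-10, edgeR).

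By list, 3 of 9 uptake, binding and storage genes tested were higher and 5 lower, and of 17 oxidoreductases 4 were higher and 12 lower. Among 13 receptor partners and co-regulators 5 were higher and 7 lower, and among 10 responsive genes 2 were higher and 6 lower. Spermatid markers were lower in MLTC-1 for 10 of 10 tested and macrophage markers for 9 of 9, where 48.5% of all genes were called lower. In all DMSO libraries 7 of 10 macrophage and 4 of 10 spermatid markers had 0 counts. Such markers pass the filter only through the 2-month libraries, so they could only be called lower. The part of spermatids and macrophages in the differences of this comparison was not tested.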

How the data were processed

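RNA was sequenced from 6 MLTC-1 and 4 primary Leydig cell libraries. The authors deposited raw counts per gene symbol, not normalized. Per the submitters' processing notes reads were handled with featureCounts 2.0.6, HISAT2 2.2.1, fastp 0.23.4 and FastQC 0.12.1, on mm10; the notes give no roles. Counting options, strand setting and annotation are not stated in the sources at hand. 0 columns lacked a sample. Each comparison was fitted on its own libraries with edgeR 4.0.16 in R 4.3.3 (filterByExpr with a minimum count of 10 and total of 15, TMM scaling, robust quasi-likelihood F-test, two-sided, Benjamini-Hochberg over all genes tested, threshold 0.05). Alternatives used limma 3.58.1, DESeq2 1.42.0, other scalings and filters, transcript length and GC offsets, a replicate block, 1 fit of all 10 libraries, and each library left out. Transcript lengths came from GENCODE M21. The method was tested on simulated data. The 9 genes, the 66 pathway genes and the markers were chosen with earlier results of these data known. Named pathway genes were up to 3 called genes a direction and comparison by smallest adjusted p, plus Aldh1a7; some that the rule names are not reported here. Top2b was added because it overlaps Rarb. No label ties equal replicate numbers to a common donor or batch.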

Additional observations from a re-analysis of the deposited data

How the results depend on the processing

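Between hymeglusin and DMSO, 7 of the 9 genes were called. That count was 4 with the stricter filter of 10 CPM, which left Rarb and Rbp4 untested, 1 in 1 fit of all 10 libraries, and 4 to 7 when each library was left out in turn. The genes called numbered 934 in the 1 fit of all 10 libraries, against 6218. Between 24 and 2 months, 1 of the 9 was called, against 0 with the stricter filter, which left Rarb untested, 2 with length and GC offsets (Rarb and Aldh1a2), 2 in the 1 fit of all 10 libraries, and 1 to 3 with a library left out. The genes called there were 4685, against 1832 with total counts alone, 2336 with the offset for length, 8868 in the 1 fit of all 10 libraries and 841 to 9887 with a library left out. Between ages, signs turned for Aldh1a1, Rara and Rarg, which were not called, and for Lrp1, which was called lower. Aldh1a1 was at -0.19 with total counts alone, -0.025 without a filter, -0.22 with an offset for length, -0.13 with offsets for length and GC, and -0.077 to 0.070 with a library left out. Rara was at -0.070 with total counts alone and at -0.14 to 0.31 with a library left out, and Rarg at -0.021 and at -0.28 to 0.51. The lowest values of Rara and Rarg were those without 24-month replicate 1. Lrp1 was at 0.10 with that offset for length. The cause of these changes was not tested. Between MLTC-1 and 2-month cells 7 or 8 of 8 genes were called with a library left out. Equal replicate numbers were not used to pair the samples in the main fits. Deviations from the group means of libraries with equal numbers correlated at 0.00221, -0.0217 and 0.0631 for hymeglusin and DMSO. For both age pairs the value was -0.0918, the same by construction, because 2 libraries deviate from their mean in opposite directions. So few values cannot tell whether samples were paired. With the replicate number as a block, 7 and 1 of the genes and 6360 and 4774 of all genes were called for hymeglusin and age. No paired analysis was possible for MLTC-1 against primary cells because they are separate sources. Where a left-out library leaves 1 in a group, that library is assumed to vary like the other groups.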
